A study of Mus musculus with 12 samples.

Results

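The genes described here are those of potassium channels and their auxiliary subunits, taken as every probe of the array whose gene symbol starts with Kcn. The rule, which used no measured value, gave 173 of 45135 probes and 88 of 19031 named genes. It also takes in 3 transcripts that are no channel subunits, the noncoding Kcnq1ot1 and Kcnmb4os1 and the regulator Kcnrg. The channel genes Kcnj10 and Kcnj13 were not analysed here.

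Hippocampal RNA was compared between 6 TIF-IACaMKCreERT2 mutants and 5 controls on Illumina MouseWG-6 v2 BeadChips, with 1 array per animal and 2 for mutant 6. The mutants carry TIF-IA flox/flox and CaMKCreERT2, a tamoxifen-inducible Cre recombinase under the Camk2a promoter, which is active in excitatory forebrain neurons, so that other cells of the tissue keep TIF-IA. The controls are given as wildtype in the labels and as TIF-IA flox/flox littermates without Cre in the study's methods. Both groups were C57Bl/6N, were injected with tamoxifen when 2 months old and were sampled 4 weeks later, and the study used both sexes. TIF-IA, encoded by Rrn3, is a transcription factor that RNA polymerase I needs to start rRNA synthesis, and the comparison asks how the hippocampus responds to its loss.

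Potassium channels let potassium leave the neuron and so set its resting potential, end the action potential and limit repetitive firing. Voltage-gated (Kv) channels open on depolarization, calcium-activated channels follow calcium entry, and inward rectifiers (Kir) and 2-pore-domain (K2P) channels carry current near rest. In the hippocampus, Kv4 channels with their KChIP partners carry the A-type current of pyramidal cell dendrites, Kv3 channels allow fast spiking of interneurons, and small-conductance calcium-activated (SK) channels shape the afterhyperpolarization.

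Values are log2 intensities after background correction and quantile normalization, differences are mutant minus control on that scale, errors are SD between animals for a group and standard errors (SE) for a difference, and probes are taken as detected in an animal at a detection p-value under 0.01. The tissue was bulk, so that fewer cells of a type and less RNA per cell cannot be told apart. The brighter Rrn3 probe read 7.80 ± 0.10 in mutants (n = 6) and 8.34 ± 0.11 in controls (n = 5), a difference of -0.55 (SE 0.07, unadjusted p = 6.67e-06, adjusted p = 0.150 in limma). Where that probe lies relative to the deleted part of the gene was not known here, so it checks the labels and not the deletion. Of the markers of pyramidal and granule neurons, Camk2a, Slc17a7 and Neurod2 were detected in all 11 animals and Neurod6 in 3, while neighbouring tissue differed in amount between sections: the mean of the choroid plexus markers, relative to all animals, ran from -1.65 to 1.90 in mutants and from -1.51 to 1.80 in controls, and that of thalamus markers from -0.69 to 1.12 and from -0.91 to 1.58. Animals bore numbers in the 200s (mutants 1 to 3, controls 1 to 4) or in the 300s (mutants 4 to 6, control 5), and the labels do not say what the series stand for.

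Few potassium channel genes differed between mutants and controls. No Kcn probe passed an adjusted p under 0.05 (0 of 173, smallest adjusted p 0.996 in limma, against 0.00222% of all probes) or an unadjusted p under 0.001 (0 of 173, against 0.082% of all probes). At an unadjusted p under 0.05, 9 of 173 probes (5.2%) were called, 3 higher and 6 lower in mutants, beside 3.96% of all probes, of which 1.93% were higher and 2.03% lower. The share among Kcn probes was thus near that of the array. Over genes, each taken at the probe with the highest mean signal, 5 of 88 (5.68%) were called, 2 higher and 3 lower, beside 4.56% of all named genes, with 2.55% higher and 2.01% lower, and 0 passed an unadjusted p under 0.001 or an adjusted p under 0.05 (0.0841% and 0.00525% of all named genes). Among what was detected in at least 5 animals, 6 of 87 probes (6.9%) were called beside 5.28%, and 4 of 62 genes (6.45%) beside 5.3%. The median difference over the 88 genes was 0.002 (45 positive, 43 negative), beside 0.005 over all named genes, of which 51.8% were positive.

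The array measured most of these genes above background. Of the 88 genes, 62 had a probe detected in at least 5 of the 11 animals and 11 had no probe detected in any animal. The 62 genes bound the size of a change: the 95% interval of the difference lay within 1 log2 unit of 0 on both sides for 56 of them and within 0.5 for 23. Since 51 genes had several probes, up to 6, probes of 1 gene were also compared with each other.

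**Figure D1:**
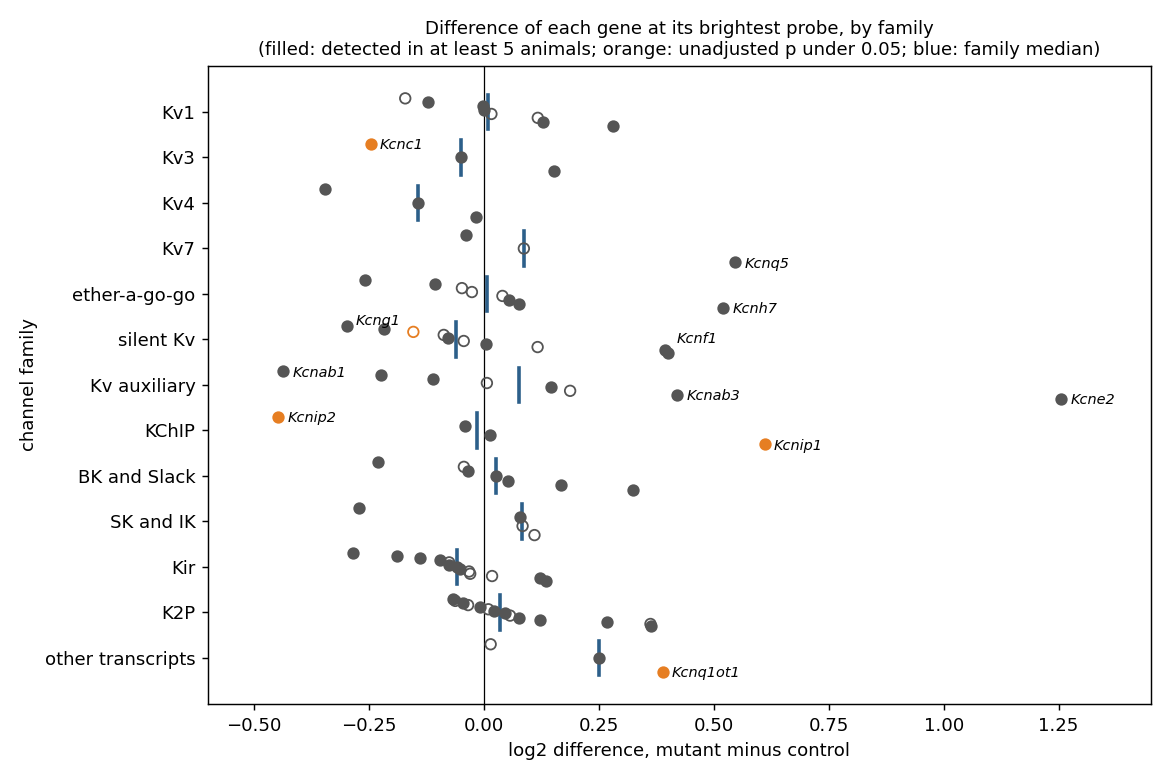
Log2 difference, mutant minus control (x axis), of each of the 88 genes at its brightest probe, by channel family (y axis). Filled points were detected in at least 5 animals, orange marks an unadjusted p under 0.05, and blue lines are family medians; most genes lie within 0.25 of 0, and Kcne2, at 1.26, stands farthest out without passing the test.

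The Kv3 family held the gene with the clearest separation. Kcnc1 encodes Kv3.1, which closes fast enough to let parvalbumin interneurons fire at high rates. Its brighter probe (ILMN_2717814) read 10.47, 10.37, 10.31, 10.27, 10.19 and 10.28 in mutants 1 to 6 and 10.49, 10.48, 10.55, 10.65 and 10.63 in controls 1 to 5. Every mutant lay below every control, although mutant 1 and control 2, at 10.47 and 10.48, nearly met. It was the only Kcn probe whose groups did not overlap (0.578% of Kcn probes, beside 0.337% of all probes). The difference was -0.25 (SE 0.06, 95% interval -0.38 to -0.11, 0.843 of the control level, unadjusted p = 0.00231 and adjusted p = 0.996 in limma), and the exact two-sided permutation test gave 0.00433, the smallest p that 6 against 5 animals allow. It was -0.16 among animals of the 200s and -0.38 among those of the 300s, where there was 1 control. The second Kcnc1 probe (ILMN_1239595), which was much dimmer, differed by 0.01 (SE 0.18), so the difference rests on 1 probe. Kcnc2, which encodes Kv3.2, also an interneuron channel, differed by -0.05 (SE 0.15), and Kcnc4, which encodes the fast-inactivating Kv3.4, by 0.15 (SE 0.34).

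The KChIP family, calcium-binding proteins that attach to Kv4 channels, raise their surface number and slow their inactivation, held differences in opposite directions. Kcnip2 was lower in mutants. Its brightest probe (ILMN_3124037) read 6.32, 6.12, 6.03, 5.74, 5.86 and 5.57 in mutants 1 to 6 and 6.44, 6.18, 6.43, 6.57 and 6.31 in controls 1 to 5. Mutant 1 lay within the range of the controls, and the other 5 mutants lay below all controls. The difference was -0.45 (SE 0.13, 95% interval -0.73 to -0.16, unadjusted p = 0.00515 and adjusted p = 0.996 in limma, exact permutation p = 0.013), with -0.25 in the 200s and -0.59 in the 300s. Without background correction it was -0.22. Its other 2 probes, each detected in 4 animals or fewer, differed by -0.21 (SE 0.18) and 0.05 (SE 0.13).

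Kcnip1, which is expressed mainly in interneurons, was higher in mutants. Its brighter probe (ILMN_1219628) read 5.62, 5.58, 5.86, 6.73, 5.96 and 5.82 in mutants and 5.67, 5.13, 4.74, 5.43 and 5.61 in controls. The groups overlapped, with control 1 above mutants 1 and 2, and mutant 4 stood apart at the top. The difference was 0.61 (SE 0.22, 95% interval 0.12 to 1.10, unadjusted p = 0.0189 and adjusted p = 0.996 in limma, exact permutation p = 0.0216), and without control 3 it was 0.47 (unadjusted p = 0.0522). Without background correction it was 0.25 (unadjusted p = 0.0264). The second probe (ILMN_2968369) pointed the same way, at 0.45 (SE 0.19, unadjusted p = 0.0408 in limma), and lost its call without any 1 of mutants 2, 4 and 6 or controls 1, 2, 3 and 5, with 0.32 (unadjusted p = 0.0721) as the lowest value, without mutant 4. Its call was also lost with the number series, 200s or 300s, as a block (0.40, unadjusted p = 0.0818 in limma), with cyclic loess (unadjusted p = 0.0598), with a variance trend (unadjusted p = 0.0523), without background correction (0.14, unadjusted p = 0.0515) and in the deposited values (0.14, unadjusted p = 0.0588). The second Kcnip1 probe also lost its call with array 2 of mutant 6 alone (0.39, unadjusted p = 0.0677 in limma). Kcnip3, also known as DREAM or calsenilin, differed by -0.04 (SE 0.13) and Kcnip4 by 0.01 (SE 0.16).

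Interneuron markers were measured beside these genes, since Kcnc1 and Kcnip1 are interneuron channels or partners. All 8 listed markers had a detected probe, and 6 of 8 were higher in mutants with a median of 0.18, beside 51.8% of all named genes. At an unadjusted p under 0.05, 0 of 8 were called, beside 4.56% of all named genes. The mean of these markers, relative to all animals, ran from -0.11 to 0.35 in mutants and from -0.24 to 0.04 in controls. Mutant 4, which had the highest Kcnip1 value, also had the highest interneuron mean. Other animals did not keep this order: control 3, with the lowest Kcnip1 value (4.74), had the highest interneuron mean among controls (0.04). Mutant 6 had a mean of 0.29 with Kcnip1 at 5.82. The part of cell composition in the Kcnc1 and Kcnip1 differences was not tested.

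The promoters of Kcnc1 and Kcnip2 are shown because, of the 9 called probes, only theirs kept an unadjusted p under 0.05 in every alternative tried. Each is the 250 bases before the RefSeq start in GRCm38.p6, 5′ to 3′ on the gene's strand, with capitals marking GC boxes (GGGCGG, or CCGCCC on the other strand). The Kcnc1 promoter lies at chr7:46396218-46396467 on the plus strand, and that of Kcnip2 at chr19:45816064-45816313 on the minus strand.
Kcnc1: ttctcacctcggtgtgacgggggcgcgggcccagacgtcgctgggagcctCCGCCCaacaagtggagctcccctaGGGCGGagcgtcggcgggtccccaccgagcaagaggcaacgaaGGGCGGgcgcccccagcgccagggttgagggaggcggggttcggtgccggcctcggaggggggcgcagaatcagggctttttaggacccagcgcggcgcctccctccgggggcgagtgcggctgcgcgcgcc
Kcnip2: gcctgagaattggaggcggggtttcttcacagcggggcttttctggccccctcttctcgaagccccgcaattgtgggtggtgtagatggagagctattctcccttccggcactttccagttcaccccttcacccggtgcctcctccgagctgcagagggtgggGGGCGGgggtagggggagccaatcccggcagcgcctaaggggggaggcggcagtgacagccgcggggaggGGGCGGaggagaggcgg
The Kcnc1 promoter held 3 GC boxes and was 74.4% G or C, and that of Kcnip2 held 2 and was 66.8% G or C. Over the 92 promoter windows of the 67 Kcn genes that matched the table, 44.6% held a GC box, beside 32.7% of the 32851 windows of all genes, and the median share of G or C was 58.6% beside 52.4%. A TATA box (TATAAA, either strand) was found in 2.17% of Kcn windows beside 12.4% of all. The cAMP response element TGACGTCA and the CArG box, the motif that serum response factor binds, were found in 0 of the 92 Kcn windows, beside 1.55% and 1.47% of all. These are matches of letters and no measurement of binding.

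**Figure D2:**
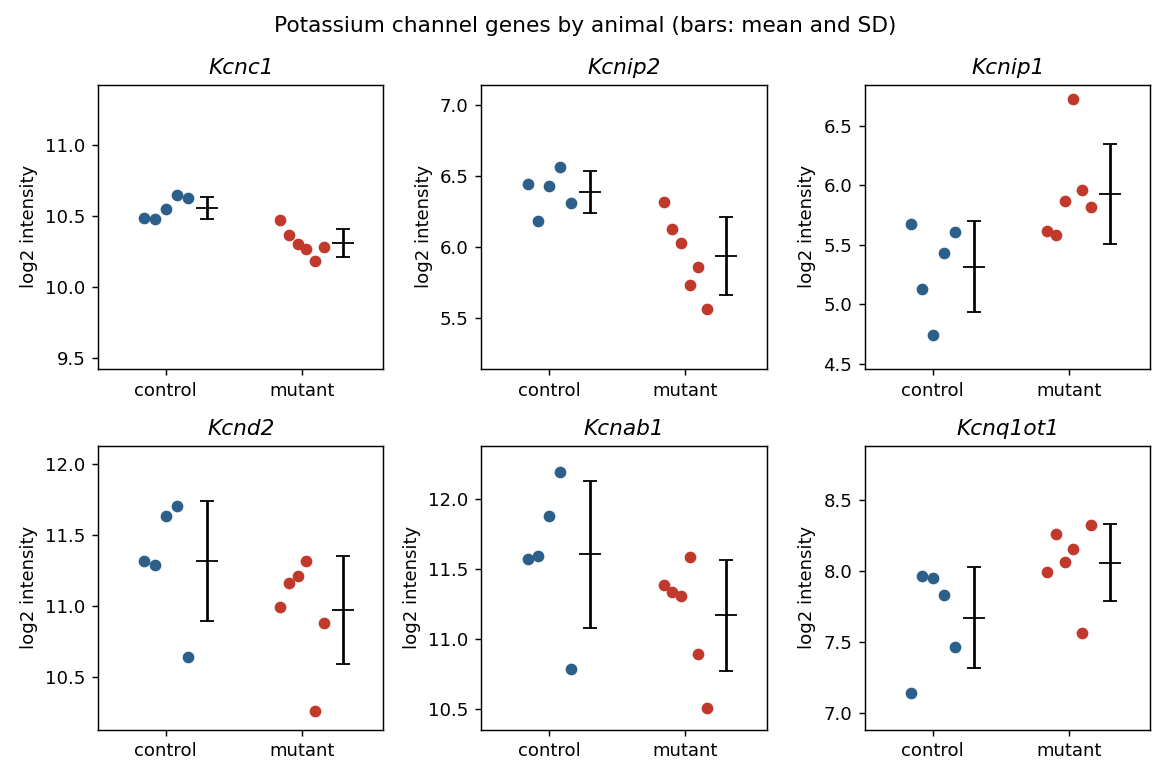
Log2 intensity (y axis) of 6 Kcn genes in each control (blue) and mutant (red), with mean and SD beside the points; the axes differ in range. Mutants lie below all controls for Kcnc1, and the groups overlap for the other 5 genes.

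The channels that KChIPs attach to, and the Kv beta subunit encoded by Kcnab1, overlapped between groups. Kcnd2, which encodes Kv4.2, the main A-type channel of CA1 dendrites, read from 10.26 to 11.31 in mutants (median 11.08) and from 10.64 to 11.70 in controls (median 11.32). The lowest values were those of mutant 5 and control 5, both in the 300s. Its 2 probes differed by -0.35 (SE 0.22, unadjusted p = 0.145 in limma, exact permutation p = 0.186) and -0.54 (SE 0.36), and the brighter one gave -0.36 within the 200s but 0.18 within the 300s. Kcnd3, which encodes Kv4.3, differed by -0.02 (SE 0.13), and all 3 genes of the Kv4 family had a negative sign (median -0.14), beside 48.2% of all named genes.

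Kcnab1 encodes Kv beta 1, which gives Kv1 channels fast inactivation. Its brightest probe read 11.39, 11.33, 11.31, 11.58, 10.89 and 10.50 in mutants and 11.57, 11.59, 11.88, 12.20 and 10.78 in controls. Control 5 lay below 5 of the 6 mutants, whereas the other 4 controls lay at 11.57 or higher, against 11.58 in the highest mutant. The difference was -0.44 (SE 0.25, unadjusted p = 0.111 in limma, exact permutation p = 0.147), with -0.47 in the 200s and 0.21 in the 300s. A second bright probe gave -0.32 (SE 0.25), and another, dim one passed an unadjusted p under 0.05 at -0.40 (SE 0.17, unadjusted p = 0.0406). That call was lost without any 1 of mutants 3 to 6 or controls 3 and 4, with -0.27 (unadjusted p = 0.108) as the smallest value, without control 3. It was also lost with the number series as a block (-0.33, unadjusted p = 0.0907 in limma) and with a variance trend (unadjusted p = 0.0746), and without background correction the difference was -0.16 (unadjusted p = 0.0507). The dim Kcnab1 probe also lost its call with the replicate number as a block (-0.39, unadjusted p = 0.112 in limma). So it did with array 1 of mutant 6 alone (-0.35, unadjusted p = 0.0759 in limma). In the deposited values it kept the call at a smaller difference of -0.16 (unadjusted p = 0.0437 in limma). Kcnab2, the commonest beta subunit in brain, differed by -0.11 (SE 0.13) and Kcnab3 by 0.42 (SE 0.23, unadjusted p = 0.0901). Kcne1, which slows the Kv7 channel of heart and ear, differed by 0.15 (SE 0.10) at its brightest probe, and the Kcne1 probe with an unadjusted p of 0.0498 was detected in 0 animals.

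Of 9 listed markers of the dentate gyrus, 7 had a probe. All 7 had a negative sign (median -0.44, Pdzd2 at -0.004), beside 48.2% of all named genes. Among them, Lct alone had an unadjusted p under 0.05 (0.0219, adjusted p = 0.996 in limma), beside 2.01% of all named genes called lower. The mean of these markers, relative to all animals, ran from -0.92 to 0.19 in mutants and from -0.08 to 0.54 in controls. Of the 7, 6 were detected and Tdo2 was not. Markers of CA1 had a median of -0.15 (2 of 7 higher) and of CA3 -0.32 (2 of 7 higher), beside 51.8% of all named genes. The part of these fields in the values of Kcnip2, Kcnd2 and Kcnab1, which excitatory neurons express, was not tested.

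Kv1 channels, which sit along axons and hold back their excitability, showed no called gene among 8 (median 0.008), beside 4.56% of all named genes. Kcna1 (Kv1.1) differed by -0.12 (SE 0.29) and Kcna2 (Kv1.2) by -0.00 (SE 0.20, 95% interval -0.45 to 0.44). Kcna6 (Kv1.6) had the smallest p of the family at 0.28 (SE 0.18, unadjusted p = 0.156 in limma), and its second bright probe gave 0.25 (SE 0.17). The difference of Kcna6 was 0.02 within the 200s and 0.70 within the 300s, where control 5 was the only control.

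Kv7 channels carry the M-current that acetylcholine shuts off. Kcnq3 differed by -0.04 (SE 0.15). The brightest Kcnq5 probe split the animals in another way than the groups: it read 4.36 in mutant 2 and 4.59 in control 1, where it was not detected, 4.67 in control 4, where it was, and from 6.56 to 8.03 in the other 8 animals. Its difference between groups was 0.55 (SE 0.75), and a second Kcnq5 probe differed by -0.62 (SE 0.29, unadjusted p = 0.0591 in limma), with the opposite sign. That second probe was lowest in mutants 4 and 2, at 4.22 and 4.28, and read 5.74 and 5.63 in controls 1 and 4, so the probes of this gene did not give the same order of animals.

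Among ether-a-go-go channels, 0 of 8 genes were called (median 0.007), beside 4.56% of all named genes. Kcnh6 had the smallest p at -0.26 (SE 0.13, unadjusted p = 0.0775 in limma), and passed the threshold with the number series as a block (-0.34, unadjusted p = 0.0185), with the replicate number as a block and with array 1 of mutant 6 alone. These were 3 of 9 alternatives, over which its difference ran from -0.34 to -0.07. It passed in 2 of 11 leave-one-out fits, and the arrays of mutant 6 differed by 0.59 at this probe. Kcnh7, of the same subfamily, had a larger but more variable difference of 0.52 (SE 0.32). Of the 10 silent Kv subunits, which form channels only together with other Kv subunits, Kcnf1 (Kv5.1) was detected in all animals and read from 9.34 to 10.63 in mutants (median 9.86) and from 9.36 to 9.63 in controls (median 9.49). Of the 6 mutants, 5 lay above all controls, and the difference was 0.39 (SE 0.19, unadjusted p = 0.058 in limma, exact permutation p = 0.0519). Kcng1 had an unadjusted p under 0.05 but was detected in 0 of 11 animals, so it is given no fold.

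Calcium- and sodium-activated channels did not show a called gene at the brightest probe. Kcnma1, the pore of the large-conductance BK channel, differed by -0.04 (SE 0.16) and its neuronal subunit Kcnmb4 by 0.03 (SE 0.24). Kcnt2, a sodium-activated channel detected in 5 animals, differed by -0.23 (SE 0.12, unadjusted p = 0.081 in limma). Among SK channels Kcnn1 read 7.13, 6.93, 7.43, 6.72, 7.27 and 7.12 in mutants and 7.50, 7.30, 7.45, 7.06 and 7.54 in controls. Its groups overlapped, with control 4 below 4 of the 6 mutants, and its difference was -0.27 (SE 0.13, 95% interval -0.56 to 0.01, unadjusted p = 0.0597 in limma, exact permutation p = 0.0736). Kcnn2, the SK channel best known in CA1 pyramidal cells, differed by 0.08 (SE 0.25) at its bright probe, and the Kcnn2 probe with an unadjusted p of 0.0399 was detected in only 1 animal. Kcnn3 differed by 0.08 (SE 0.12) and was detected in 2 animals.

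Kir genes had a negative sign in 10 of 13 cases (median -0.06), beside 48.2% of all named genes. Of the 13, 0 were called, beside 4.56% of all named genes. Kcnj3 and Kcnj6 encode GIRK channels, which open on signals of inhibitory G-protein-coupled receptors, and differed by -0.08 (SE 0.18) and -0.14 (SE 0.38). The brightest Kcnj6 probe read 4.23 in mutant 4 and 4.18 in control 1, at background, against 5.26 to 6.19 in the other 9 animals, and a second probe was also lowest in these animals, at 4.43 and 4.49. Kcnj8, the pore of ATP-sensitive channels of vascular mural cells, differed by -0.28 (SE 0.13, unadjusted p = 0.0573 in limma), with -0.48 in the 200s and 0.06 in the 300s.

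K2P channels, which carry background leak, had a positive sign in 9 of 14 genes (median 0.03), beside 51.8% of all named genes. None was called (0 of 14), beside 4.56% of all named genes. Kcnk1 (TWIK-1), abundant in astrocytes, differed by -0.07 (SE 0.14, 95% interval -0.37 to 0.24). Kcnk3 (TASK-1) had the smallest p at 0.36 (SE 0.18, unadjusted p = 0.0723 in limma), but its difference was -0.05 within the 200s and 1.01 within the 300s. The brightest Kcnk5 probe was detected in 3 of 6 mutants and 0 of 5 controls, so its values lay near background. It differed by 0.36 (SE 0.20, 95% interval -0.07 to 0.79, unadjusted p = 0.0925 and adjusted p = 0.996 in limma). Dimmer Kcnk5 probes differed by 0.07 (SE 0.14) and 0.14 (SE 0.11).

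The noncoding Kcnq1ot1, transcribed antisense to Kcnq1 and known for imprinting in cis, was higher in mutants. It read 8.0, 8.27, 8.06, 8.16, 7.56 and 8.32 in mutants and 7.15, 7.96, 7.95, 7.83 and 7.47 in controls. Of the 6 mutants, 5 lay above all controls, and mutant 5 lay below 3 of the 5. The difference was 0.39 (SE 0.17, 95% interval 0.01 to 0.77, unadjusted p = 0.0471 and adjusted p = 0.996 in limma, exact permutation p = 0.0736), and it lost the unadjusted call without any 1 of mutants 1, 2, 3, 4 and 6 or controls 1 and 5, with 0.26 (unadjusted p = 0.126) as the lowest value, without control 1. With cyclic loess, Kcnq1ot1 also lost the call (0.40, unadjusted p = 0.0599 in limma). Kcnq1 itself, detected in 2 animals, differed by 0.09 (SE 0.08), and the strand that each probe reads was not given in the sources used here.

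**Figure D3:**
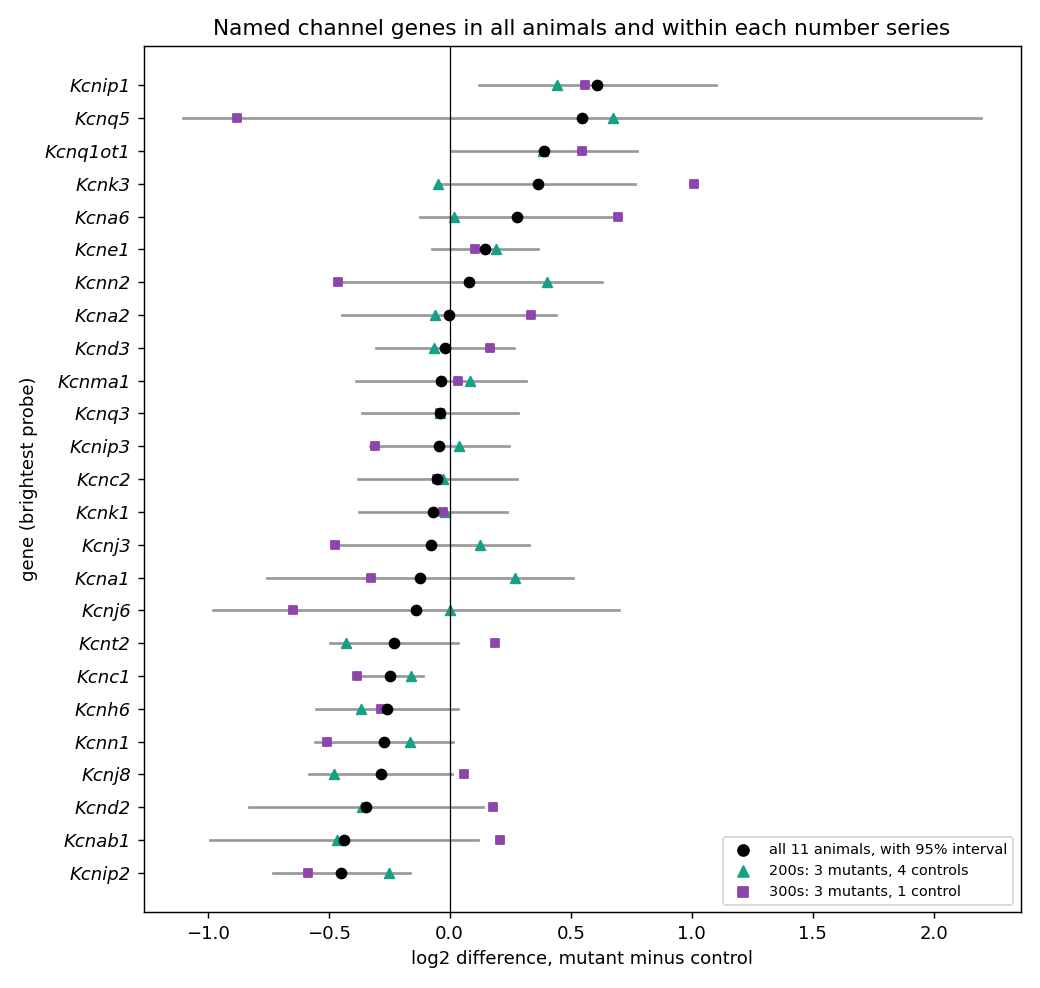
Log2 difference, mutant minus control (x axis), of 25 named genes detected in at least 5 animals (y axis, brightest probe, Kcne2 left out for its spread) over all 11 animals with its 95% interval (black and grey), within the 200s (triangles) and within the 300s (squares). Kcnc1, Kcnip2, Kcnip1 and Kcnq1ot1 keep their sign in both series, while Kcnab1, Kcnd2 and Kcnk3 do not.

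The signs within the animal number series were the same in 26 and opposite in 36 of the 62 detected genes. The series share no animals, and the 300s hold 1 control, whose value enters each of their differences.

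The spread between animals of a group was wide for some of these genes. The median SD of the 62 detected genes was 0.353, beside 0.271 over all named genes detected as often. The genes with the widest spread, chosen after their values were seen, were Kcne2 (pooled SD 2.04), Kcnq5 (1.37), Kcnt1 (0.773), Kcng2 (0.73) and Kcnj6 (0.698). Repeated arrays of mutant 6 gave close values: over the 87 Kcn probes detected in at least 5 animals they correlated at 0.991, and different animals of 1 group at 0.917 to 0.977, as a description across probes that share the array.

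Kcne2 encodes a small subunit that partners Kcnq1 at the apical membrane of the choroid plexus. It read 8.96, 8.12, 5.40, 8.55, 4.24 and 4.22 in mutants and 4.21, 5.82, 4.18, 8.30 and 4.12 in controls. Mutants 1, 2 and 4 and control 4 were high, and 5 of the 11 animals lay at background. The difference of 1.26 (SE 1.11, 95% interval -1.19 to 3.70, unadjusted p = 0.282 in limma, exact permutation p = 0.355) was within the spread between animals. The choroid plexus markers were high in the same 4 animals. Of 10 markers with a probe, 9 were higher in mutants (median 0.665), beside 51.8% of all named genes. At an unadjusted p under 0.05, 0 of 10 were called, beside 4.56% of all named genes, and Tmem72 was detected in 0 animals. Folr1, the folate receptor of this epithelium, read 8.46, 7.73, 8.03 and 7.77 in these 4 animals and from 4.28 to 5.90 in the others. Without mutants 1, 2 and 4 and controls 3 and 4, whose choroid plexus or thalamus mean was above 0.5, the Kcne2 difference was -0.10 (SE 0.56). The animals left out include the 4 with the highest Kcne2 values, so this value cannot serve as a test. The part of choroid plexus tissue in the Kcne2 values was not tested.

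Kcnj12 and Kcnk13, singled out after their values were seen, were high in the animals with high thalamus markers. The thalamus mean was 1.12 in mutant 2, 0.99 in mutant 4, 0.57 in control 3 and 1.58 in control 4, and from -0.91 to -0.39 in the other 7 animals. Kcnj12, an inward rectifier, read 6.92, 6.65, 7.19 and 6.80 in these 4 and from 5.56 to 6.58 in the others. Kcnk13 (THIK-1), a channel of microglia, read 8.97, 9.55, 8.69 and 8.69 in them and from 7.71 to 8.32 in the others. Neither gene overlapped between these animals and the rest, though Kcnj12 nearly did, at 6.65 against 6.58. The share of all probes that separate the same animals was not counted, so this is a description of picked genes. Their differences between mutants and controls were 0.12 (SE 0.33) and 0.27 (SE 0.31). Kcnc4 and Kcng2 took their lowest values in 1 of the same animals each, 9.98 in control 4 and 6.06 in mutant 4. The part of neighbouring tissue in these values was not tested.

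**Figure D4:**
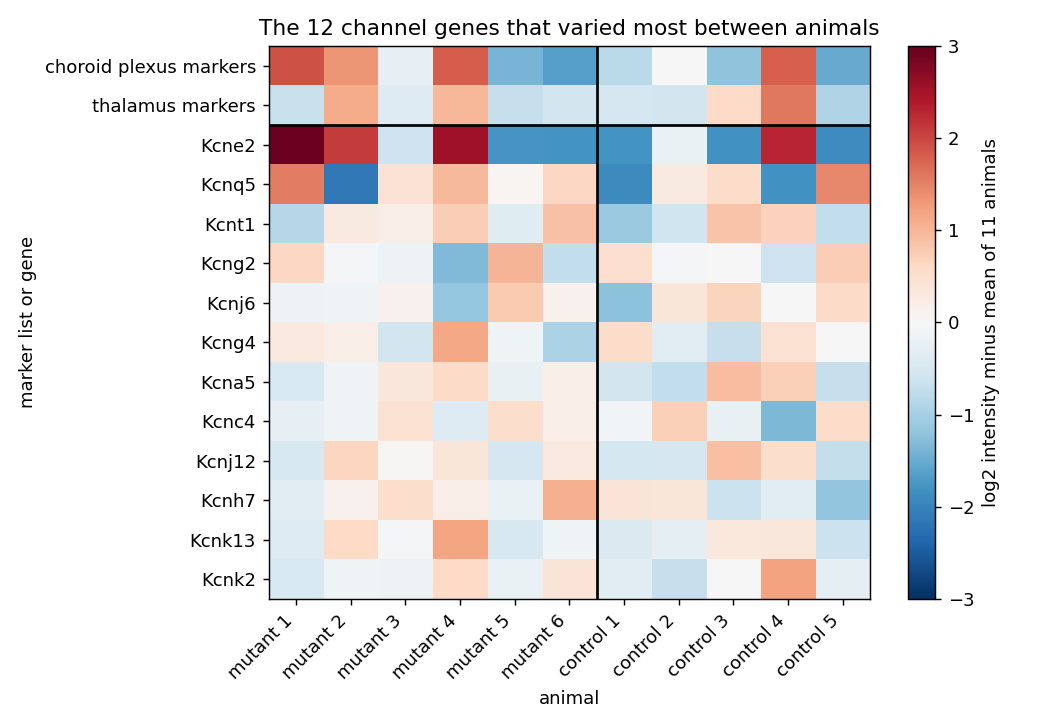
Log2 intensity minus the mean of the 11 animals (colour) for the 12 Kcn genes with the largest SD between animals and for the means of the choroid plexus and thalamus markers (rows), by animal (columns). Kcne2 is high where the choroid plexus row is high, in mutants 1, 2 and 4 and control 4, and Kcnj12 and Kcnk13 are high where the thalamus row is high.

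The calls above held without the 5 animals rich in neighbouring tissue for Kcnc1 (-0.27, SE 0.08, unadjusted p = 0.0147 in limma), Kcnip2 (-0.49, SE 0.14, unadjusted p = 0.0133) and the brighter Kcnip1 probe (0.41, SE 0.16, unadjusted p = 0.0406), an alternative chosen after seeing the data that leaves 3 mutants and 3 controls. The second Kcnip1 probe differed by 0.23 there (unadjusted p = 0.281 in limma). For Kcnq1ot1 the difference was 0.46 (unadjusted p = 0.147) there. In that fit 18 of 173 Kcn probes (10.4%) had an unadjusted p under 0.05 beside 5.02% of all probes.

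Genes whose products associate with potassium channels or handle potassium under another symbol were read as a list of 23, of which 20 had a probe. Of these, 14 were higher and 6 lower in mutants (median 0.05), beside 51.8% of all named genes with a positive sign. At an unadjusted p under 0.05, 2 were called, both higher and both BK gamma subunits, beside 4.56% of all named genes in either direction and 2.55% higher. Lrrc38 differed by 0.48 (SE 0.21, unadjusted p = 0.0454, adjusted p = 0.996 in limma) and was detected in 5 of 6 mutants and 2 of 5 controls, while Lrrc52 was detected in 3 of 6 mutants and 0 of 5 controls, so no size is given for it. The other 2 gamma subunits were Lrrc55, at 0.18 (SE 0.21, unadjusted p = 0.428), and Lrrc26, which was detected in no animal. Dpp6 and Dpp10, which complete the Kv4 complex beside the KChIPs, differed by 0.03 (SE 0.10) and 0.44 (SE 0.36), and Dlg4 (PSD-95), which anchors Kv1 channels, by -0.28 (SE 0.24). Markers of astrocytes, which buffer the potassium that neurons release, had a median of -0.147 (1 of 8 higher), and those of oligodendrocytes 0.261 (8 of 9 higher), beside 51.8% of all named genes. At an unadjusted p under 0.05, 0 of either list were called, beside 4.56% of all named genes.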

How the data were processed

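For the 12 arrays the authors deposited unnormalized probe intensities (mean bead brightness, linear scale), each with a detection p-value whose method is not given in the sources used here. They also deposited log2 values of the same arrays, which per the study's methods were background-subtracted and quantile normalized; medians were 6.60 to 6.64. The submitters' processing notes name limma, with no version given. Of 46089 lines, 954 without a probe name were taken as control beads, and 45135 probes were tested. The platform annotation gave 34773 probes 1 symbol, 18 several and 10344 none, and all 173 Kcn probes matched the RefSeq table.

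In R 4.3.3 with limma 3.58.1, intensities were corrected by normexp using the detection p-values (offset 16), quantile normalized and taken as log2, and both arrays of mutant 6 were averaged. Median intensities per array were 83.1 to 108 and 19193 to 21889 probes were detected. Precision is limited by the number of animals; where the labels do not say how animals relate, p-values measure only their spread. Probes were fitted with lmFit and eBayes (prior degrees of freedom 2.14) as mutant minus control, with Benjamini-Hochberg adjustment over all probes; single genes were also given a two-sided exact permutation p over 462 splits. On simulated signals the fit called, at an unadjusted p under 0.05, 76.1% of 67 probes changed by 0.5 (log2), 100% of those changed by 1 or 2, and 4.8% of 44934 unchanged ones. For a change of 0.5, 32.8% reached an unadjusted p below 0.001, and 11.9% were called after adjustment. The changed probes were drawn from the brighter detected ones, the widest spreads were capped, and undetected probes were given almost no spread. Detected Kcn genes varied more than other detected genes, and several, among them Kcnip1, were dimmer than the probes drawn. These rates can therefore be too high for Kcn genes. Members and lists were chosen with earlier results of these data known. Genes named are those with a probe at an unadjusted p under 0.05, else the smallest p of a family among probes detected in at least 5 animals, and channels known in hippocampus or choroid plexus, 28 genes in all; some items are not reported here. Alternatives were cyclic loess, the authors' log2 values, uncorrected background, detected probes only, the number series or the replicate number as a block, either array of mutant 6, a variance trend, leaving out each animal, other choices of probe per gene and, added after seeing the data, leaving out animals rich in neighbouring tissue. Promoter sequences are from RefSeq (GRCm38.p6). Protein and probe sequences were not used here.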

Additional observations from a re-analysis of the deposited data

Results flagged for a closer look

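One value stood far from the rest of its group among 66 groups that were checked, where chance alone would flag about 1 in 20. A group was the mutants or the controls at a probe of a named gene or Rrn3, whether detected or not. Mutant 4 read 6.73 at the brighter Kcnip1 probe, and the other 5 mutants read 5.58 to 5.96, so that its gap to them was 0.671 of the group's range. Without mutant 4 the difference between mutants and controls was 0.45.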

How the results depend on the processing

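No Kcn probe reached an adjusted p under 0.05 in any alternative (limma). The number at an unadjusted p under 0.05, 9 in the analysis as reported, was 6 to 9 with other values, normalizations, arrays, filters or the number series as a block, 4 to 13 when 1 animal was left out (fewest without control 3, most without control 5), and 18 without the animals rich in neighbouring tissue. The labels do not say whether animals of the same replicate number are paired, and mutant 4 bore a number in the 300s but control 4 in the 200s. Mutant 6 had no control of its number, so a fit with this block gives the differences found without mutant 6. Of 5 same-numbered pairs, 3 correlated above 0.1 in their deviations from the group mean. With the replicate number as a block, Kcne2 passed an unadjusted p under 0.05 (1.73, SE 0.68, unadjusted p = 0.0408 in limma). Without mutant 6 and without the block, the same difference had an unadjusted p of 0.148 in limma. The number of Kcn probes at that threshold was then 16, of which 6 were shared with the 9. At an unadjusted p under 0.001 it was 1, in place of 0, with the deposited log2 values and with no background correction, and 0 to 1 when 1 animal was left out. Kcnc1 and Kcnip2 kept an unadjusted p under 0.05 in all 11 leave-one-out fits and 9 others, and Kcnip1 in 10 and 9. The median of SK and IK genes was -0.10 over detected probes and -0.075 over the mean of a gene's probes, and without the animals rich in neighbouring tissue that of BK and Slack genes was -0.079 and that of Kv4 genes 0.079; the cause was not tested. Small differences changed sign: Kcna2 with cyclic loess (0.0018) or array 1 of mutant 6 (0.014); with the number series as a block, Kcna1 (0.090), Kcna2 (0.060), Kcnma1 (0.068), Kcnd3 (0.0047) and Kcnn3 (-0.025); and without the animals rich in neighbouring tissue, Kcna2 (0.078), Kcne1 (-0.016), Kcnq3 (0.0043), Kcnj6 (0.45), Kcnd3 (0.17), Kcnn2 (-0.16) and Kcne2 (-0.10). When 1 animal was left out, signs changed within -0.30 to 0.050 for Kcna1, -0.10 to 0.15 for Kcna2, -0.16 to 0.020 for Kcnc2, -0.10 to 0.048 for Kcnd3, -0.11 to 0.033 for Kcnip3, -0.23 to 0.052 for Kcnj3, -0.46 to 0.082 for Kcnj6, -0.13 to 0.014 for Kcnk1, -0.11 to 0.049 for Kcnma1, -0.094 to 0.21 for Kcnn2 and -0.10 to 0.067 for Kcnq3. Signal over background limits 26 genes with no probe detected in 5 animals, whose differences are compressed.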
